A study of Mus musculus with 2 samples.

Results

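The genes of the extracellular matrix and of cell adhesion were compared between mouse morulae injected with LIF siRNA and morulae injected with scrambled siRNA. They were taken by the start of the gene name on the array, with the 28 starts procollagen, collagen, laminin, fibronectin, integrin, cadherin, protocadherin, nidogen, entactin, heparan sulfate, syndecan, glypican, decorin, biglycan, lumican, tenascin, thrombospondin, secreted acidic, secreted phosphoprotein, fibulin, fibrillin, elastin, matrilin, vascular cell adhesion, selectin, neural cell adhesion, vitronectin and lysyl oxidase. The spots named laminin receptor 1, a ribosomal protein, were left out. The rule gave 97 spots with 94 gene names, of 8735 gene spots with 6113 names. No measured value entered it. The starts collagen, fibronectin, entactin and secreted acidic found 0 spots, so fibronectin and SPARC are not among the genes described here.

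Leukemia inhibitory factor (LIF) is a cytokine of the reproductive tract that acts through its receptor and STAT3. The embryos were whole B6CBF1 embryos of 4 d that had received 1 pl with 1.0 fmol of siRNA in the cytoplasm at the two-pronuclear stage, as the labels give it (the paper's methods state another dose), and both groups were injected and cultured in the same way. An siRNA (small interfering RNA) brings about the breakdown of a transcript with the same sequence, and the scrambled siRNA is the control for the injection. RNA of pooled morulae with LIF siRNA was labeled with Cy5, RNA of pooled morulae with scrambled siRNA with Cy3, and both were hybridized together to a cDNA array, on 2 arrays with the same dye order. The titles call the arrays replicates, 1 field of the labels instead speaks of untreated embryonic stem cells and of another number of replicates, and nothing says that each array had its own pool of embryos, so the spread between the arrays may be technical. No spot was named for LIF, and the knock-down could not be checked on the arrays. A difference between the dyes and a difference between the treatments cannot be told apart, since the dyes were not swapped.

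The extracellular matrix is a network of secreted proteins around cells. Basement membranes are sheets of laminin and type IV collagen, joined by nidogen and heparan sulfate proteoglycans, and in the mouse they are first laid down around the time of implantation. Integrins are receptors of an alpha and a beta chain that hold cells to this matrix and pass the contact on to the actin skeleton, with integrin linked kinase among their partners. Cadherins join cell to cell, and cadherin 1 (E-cadherin) carries the compaction of the morula.

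The signals were those of an embryo array with many dim spots. The median ratio of mean brightness to local background over all gene spots lay between 4.83 and 6.60 in the 4 channels (each dye on each array), and over the 97 matrix and adhesion spots between 2.43 and 3.45. Of these 97 spots, 73 were well above background in all 4 channels and 6 in no channel. The lowest and highest processed signals of the 97 spots were 8.21 and 20966, the blank spots had medians of 8.05 to 17.4, and 26 of the 97 spots had a mean signal above 1000 in either dye. No spot was saturated, and none of the 97 was marked as an outlier. The comparison used the 82 spots that had, on each array, 1 or both dyes well above background. The morula was checked by 6 marker names found of 10 searched, and all 6 were well above background in all 4 channels. POU domain class 5 transcription factor 1 (Oct4) had log2 ratios of -0.28 and 0.05, and 3 of the 6 markers had a ratio below 0.5 with a signal above 1000, namely SOX2, keratin 8 and E74-like factor 3, as had 5.42% of all bright spots. Zinc finger protein 42 (Rex1), with signals of 21414 to 31231, had log2 ratios of 0.54 and 0.16. Undifferentiated embryonic cell transcription factor 1, at -1.12 and -0.77, was dimmer. In all, 4 of the 6 markers had a ratio below 1 on both arrays and 1 a ratio above 1 on both. Without the brightest spot, Rex1, their summed signal was 10924 and 14106 with LIF siRNA and 25332 and 30984 with scrambled siRNA.

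The ratio was taken as LIF siRNA over scrambled siRNA, on the log2 scale, so that a negative value is a lower signal in the LIF-siRNA-treated embryos and -1 is a halving. With 2 arrays, limma's moderated test with Benjamini-Hochberg adjustment over 8079 gene spots called 0 of the 82 spots and 0.0% of all spots. The lowest adjusted p among the 82 was 0.058. At an unadjusted p under 0.05 by limma there were 30 of 82 spots (36.6%), 18 with a higher and 12 with a lower ratio, against 30.7% of all spots. The methods' t-test gave 11 of 82 at the same unadjusted threshold, beside 865 of all 8079 spots, and 0 of either after adjustment. No gene named in the following passed the adjusted test in this fit, and their values are given as measured. In 4 other settings of the test some did, among them integrin linked kinase. Its limma adjusted p was 0.0092 with an intensity trend and 0.021 for signals above 1000. It was 0.044 with median centring and 0.048 with every channel well above background. With the intensity trend, 1133 of all 8079 spots passed. Another background correction (normexp) with loess, outliers kept, no filter on dim spots and the methods' t-test called no matrix or adhesion spot.

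The methods of the study ask for a ratio above 2 or below 0.5 where either dye has a signal above 1000, and do not say how the arrays are joined. With the ratio taken here as the geometric mean and the signal as the mean over the arrays, 0 of the 26 bright matrix and adhesion spots were up-expression spots and 1 of 26 (3.85%) was a down-expression spot. Among all 3527 bright spots the shares were 5.33% and 5.42%. Without regard to brightness, 4 of 82 spots (4.88%) had a ratio above 2 on each of the arrays and 4 of 82 (4.88%) a ratio below 0.5 on each, beside 2.78% and 3.03% of all spots. After normexp and loess, a setting added for this count after the data were seen, 0 of 82 and 2 of 82 (2.44%) were left, beside 1.3% and 1.65% of all spots, and the 2 were fibulin 5 and integrin linked kinase. The ratio was above 1 on both arrays for 31 of 82 spots (37.8%) and below 1 on both for 25 of 82 (30.5%), beside 36.7% and 36.8% of all spots, and 26 spots differed in sign between the arrays. The median log2 ratio of the 82 spots was 0.05 (0.05 on array 1 and 0.14 on array 2), and over all spots it was -0.004. The genes of the matrix and of adhesion thus lay on both sides of no change. The counts past the thresholds were of few spots, and their difference from the shares of the whole array was not tested.

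**Figure D1:**
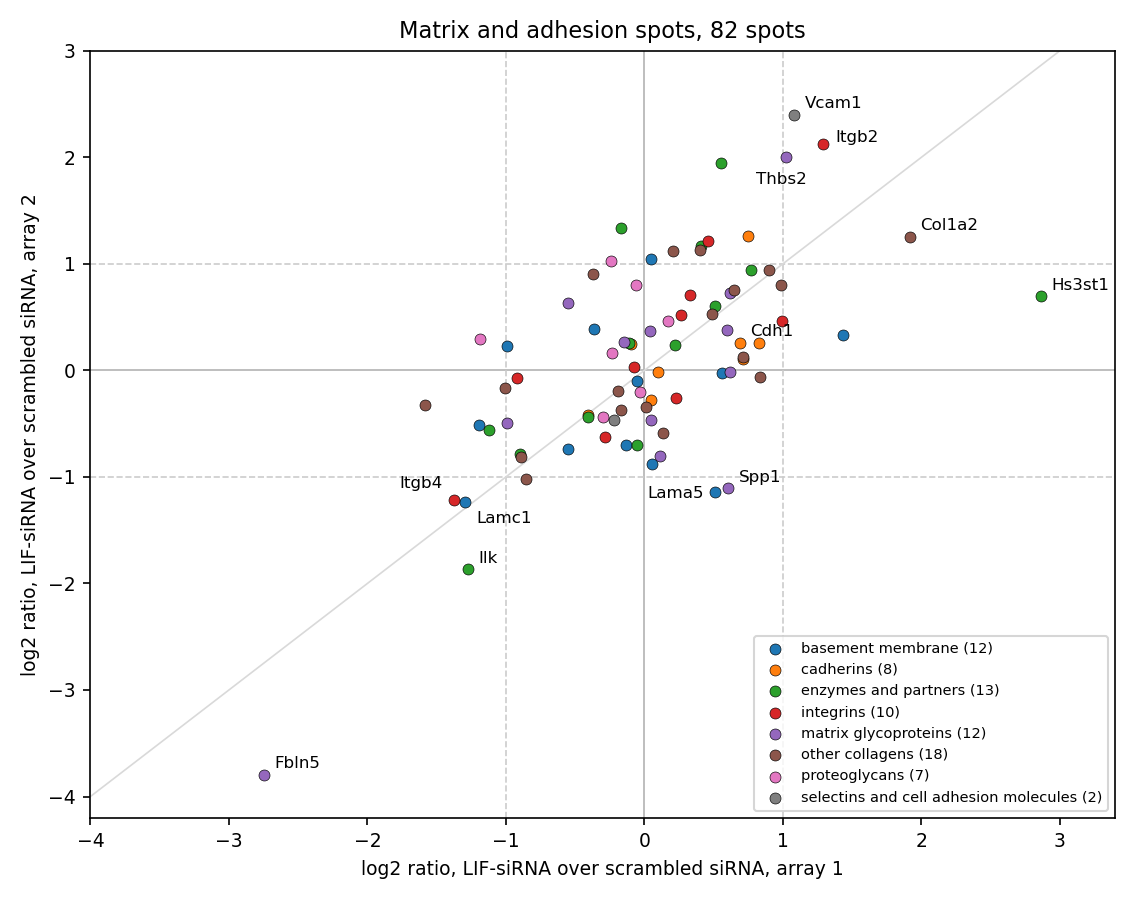
Log2 ratio of LIF siRNA over scrambled siRNA on array 1 (x axis) against array 2 (y axis) for the 82 matrix and adhesion spots, 1 point per spot, colored by family with the number of spots in brackets; dashed lines mark a 2-fold difference and the diagonal marks equal values. Fbln5 (fibulin 5) lies alone at the lower left, with -2.74 and -3.80, and Vcam1, Itgb2, Thbs2 and Col1a2 lie past the dashed lines at the upper right.

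Ratios of a pair are given for array 1 and then array 2 throughout. Integrin linked kinase (Ilk), the partner of the integrin beta chains that ties them to actin, was the one spot past the criteria. Its processed signal was 1003 with LIF siRNA and 2428 with scrambled siRNA on array 1, and 1066 and 3891 on array 2. Both signals of the LIF-siRNA-treated embryos were thus under both of the controls. The share of all spots with such a gap between the groups was not counted, for this spot or for those below. Its log2 ratios were -1.28 and -1.87, with a mean of -1.57 ± 0.42 (SD, n = 2) and a limma adjusted p of 0.061.

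Fibulin 5 (Fbln5), a secreted glycoprotein that binds integrins and is needed for elastic fibers, had the lowest ratio of the 82 spots. Its signals were 46.1 with LIF siRNA and 309 with scrambled siRNA on array 1, and 58.9 and 818 on array 2. The log2 ratio was -2.74 and -3.80, with a mean of -3.27 ± 0.74 (SD, n = 2) and a limma adjusted p of 0.058. All 4 of its channels were well above background, but no signal reached 1000, and the spot is not among the down-expression spots for that reason. With another background correction (normexp) and loess, the mean was -2.00, still the same direction and more than 2-fold. Elastin and fibrillin 1, the core proteins of elastic fibers, had log2 ratios of -0.15 and 0.27, and 0.62 and -0.02, and differed in sign between the arrays.

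The bases before the transcription start of these 2 genes, the lowest by mean ratio among the genes with an entry in the promoter table, are shown to give the sequence context of the spots with the lowest ratios. They were read from RefSeq (GRCm38.p6), 250 bases up to the start, for the outermost of the 2 starts of each gene. Capitals mark the motifs TTCNNNGAA (the palindrome bound by STAT proteins), GGGCGG (a GC box), CCAAT and TATAAA on either strand. None of the motifs overlaps another in these windows.
Fbln5, chr12:101819120-101819369, minus strand: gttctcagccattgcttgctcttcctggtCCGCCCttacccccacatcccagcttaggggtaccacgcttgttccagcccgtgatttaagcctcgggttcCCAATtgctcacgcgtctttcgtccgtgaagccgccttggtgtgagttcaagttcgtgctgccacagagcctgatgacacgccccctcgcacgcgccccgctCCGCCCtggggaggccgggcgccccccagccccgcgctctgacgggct
Ilk, chr7:105736340-105736589, plus strand: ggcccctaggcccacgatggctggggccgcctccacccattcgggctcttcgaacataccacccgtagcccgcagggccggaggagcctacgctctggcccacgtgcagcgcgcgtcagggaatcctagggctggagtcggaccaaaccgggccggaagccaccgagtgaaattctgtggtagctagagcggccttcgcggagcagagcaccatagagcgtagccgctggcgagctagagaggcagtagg

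The Fbln5 window held 2 GC boxes and 1 CCAAT, and the Ilk window held none of these motifs. Both were rich in G and C (65.2% and 66.4%, with a median of 52.4% over all start sites of the table). Of the 94 gene names, 89 were given a symbol by hand and 54 had a window in the table. TTCNNNGAA stood in the 250 bases of 1 of these 54 genes (1.85%) and of 8.13% of the 27025 genes of the table. The gene was laminin beta 2 (Lamb2), and its bases are shown because they are the single match.
Lamb2, chr9:108479639-108479677, plus strand: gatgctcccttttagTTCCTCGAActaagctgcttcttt
The Lamb2 spot itself had log2 ratios of -0.05 and -0.10, the values of a gene with almost equal signals in both groups. GGGCGG stood in 34 of the 54 windows (63%, and 35.4% of all genes), CCAAT in 19 (35.2%, and 37.5%) and TATAAA in 9 (16.7%, and 14.3%). A match is a run of letters and not a measured binding site.

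**Figure D2:**
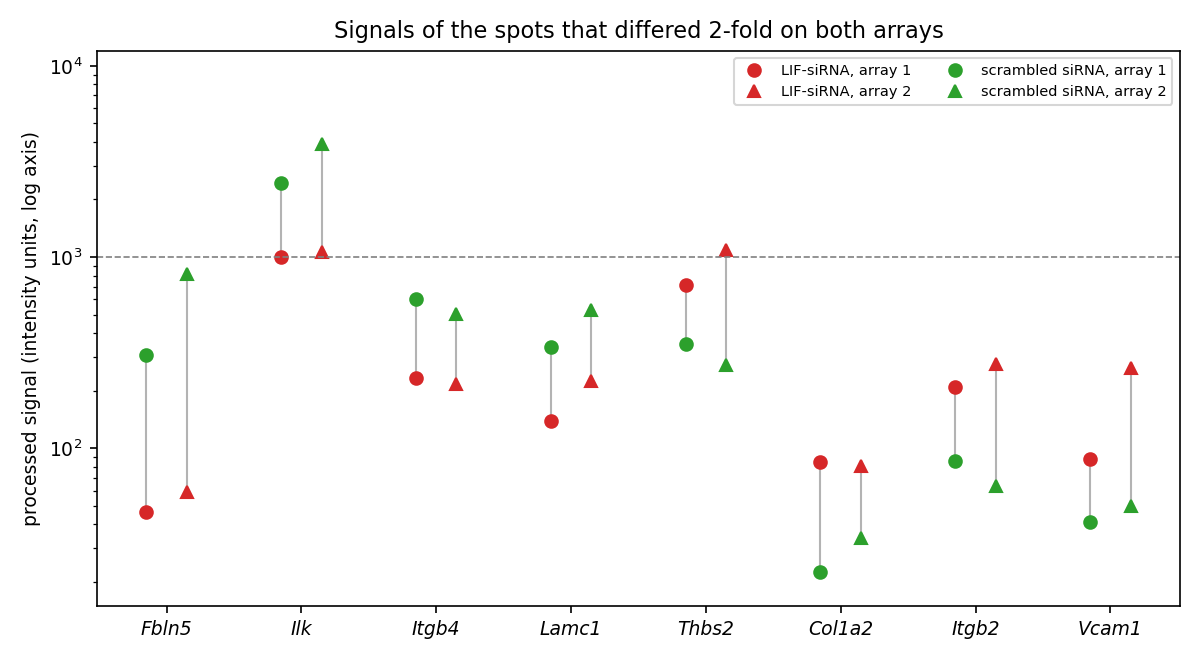
Processed signal (intensity units, log axis) of the 8 spots that differed at least 2-fold in the same direction on both arrays, with LIF siRNA in red and scrambled siRNA in green, circles for array 1 and triangles for array 2; the dashed line marks a signal of 1000. Ilk alone has all its points at or above that line, with 1003 and 1066 with LIF siRNA and 2428 and 3891 with scrambled siRNA.

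Among the integrins, 10 spots were measured and all 10 entered the fit, 5 with a ratio above 1 on both arrays, 3 with a ratio below 1 on both and 2 with mixed signs. Their median log2 ratio was 0.19. Integrin beta 4 (Itgb4), the laminin receptor chain of hemidesmosomes, gave 233 with LIF siRNA and 606 with scrambled siRNA on array 1, and 217 and 504 on array 2. The groups did not overlap, the mean log2 ratio was -1.30 ± 0.11 (SD, n = 2), and the limma adjusted p was 0.061. After normexp and loess the mean was -0.98, under 2-fold. Integrin alpha 6 (Itga6), the partner chain of integrin beta 4 and the main laminin receptor of early embryos, had signals of 3892 and 4107 on array 1 and 4948 and 4852 on array 2. Its log2 ratios of -0.08 and 0.03 lay on either side of 0. Integrin beta 1 (Itgb1), shared by most matrix receptors, had log2 ratios of -0.29 and -0.62, with signals of 3181 and 3558 with LIF siRNA and 3880 and 5480 with scrambled siRNA. Its limma adjusted p was 0.23. Integrin alpha V (Itgav), of the vitronectin receptor, was at -0.92 on array 1 and -0.08 on array 2, so that the value came mainly from array 1.

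The 5 integrin spots with a ratio above 1 on both arrays were the beta 2, alpha L, alpha 2b, alpha 4 and alpha E chains. Integrin beta 2 (Itgb2), the common chain of the leukocyte integrins, gave 210 and 275 with LIF siRNA and 86.0 and 63.1 with scrambled siRNA. Its log2 ratios were 1.29 and 2.12, with a mean of 1.71 ± 0.59 (SD, n = 2) and a limma adjusted p of 0.061. The mean was 0.96 after normexp and loess, under 2-fold. Integrin alpha L, which pairs with beta 2 on leukocytes, had log2 ratios of 0.46 and 1.21, integrin alpha 2b of platelets 0.99 and 0.46, integrin alpha 4 0.33 and 0.70, and integrin alpha E 0.26 and 0.52. Integrin beta 7, which pairs with the alpha 4 and alpha E chains, had 0.23 and -0.25 and so did not share their sign on array 2. Of the blood cell markers, 9 spots were found, 2 of the 8 in the fit had a ratio above 1 on both arrays and 4 a ratio below 1 on both, their summed signal was 2205 and 2168 with LIF siRNA and 4627 and 4103 with scrambled siRNA, and without the brightest spot, hemoglobin X, it was 595 and 747 with LIF siRNA and 648 and 664 with scrambled siRNA. Lysozyme was dim in both groups, with signals of 19.4 to 32.6. Their part in the integrin values was not tested.

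The partners of the integrins had ratios on both sides of 1. Integrin beta 1 binding protein 2 (melusin), a muscle protein that binds the beta 1 tail, had signals of 1371 and 1671 with LIF siRNA and 2560 and 2886 with scrambled siRNA, and log2 ratios of -0.90 and -0.79 with a limma adjusted p of 0.091. Integrin-associated protein (Cd47), a receptor of thrombospondin, had -0.05 and -0.70. Integrin binding sialoprotein (Ibsp), a bone matrix protein with an integrin-binding motif, had 0.56 and 1.95 (limma adjusted p of 0.11), with signals of 532 and 704 with LIF siRNA and 362 and 182 with scrambled siRNA.

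Of 14 basement membrane spots, 12 entered the fit, of which 5 had a ratio below 1 on both arrays, 2 a ratio above 1 on both and 5 mixed signs. Over all spots, 36.8% had a ratio below 1 on both arrays and 36.7% above. The median log2 ratio of the 12 spots was -0.35, beside -0.004 over all spots, and the difference was not tested. Laminin gamma 1 (Lamc1), the gamma chain of most laminins, gave 138 and 225 with LIF siRNA and 338 and 531 with scrambled siRNA. Its log2 ratios of -1.29 and -1.24 were close on the arrays, with a mean of -1.26 ± 0.04 (SD, n = 2) and a limma adjusted p of 0.061, and the mean was -0.93 after normexp and loess. Laminin B1 (Lamb1), the beta chain that joins gamma 1 in the first laminin of the embryo, had signals of 5123 and 5860 with LIF siRNA and 7519 and 9804 with scrambled siRNA. Both values of the LIF-siRNA-treated embryos were under both controls, the log2 ratios were -0.55 and -0.74, and the limma adjusted p was 0.12. Laminin alpha 1 (Lama1), the alpha chain of that trimer, had log2 ratios of -0.13 and -0.70. All chains of that trimer thus had a ratio below 1 on both arrays.

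Of the other laminin chains in the fit, beta 2 was given with its promoter bases above, and the rest differed in sign between the arrays or had a large spread. Laminin alpha 5 (Lama5), of the later laminins, had log2 ratios of 0.51 and -1.14, with signals of 1984 and 1147 with LIF siRNA and 1397 and 2531 with scrambled siRNA, so the arrays went opposite ways. Laminin alpha 4, of vessel walls, had 0.05 and 1.05, laminin alpha 2 of muscle -0.99 and 0.23 (the LIF-siRNA signal of array 1 not well above background), and laminin gamma 2 of epithelia 0.05 and -0.88. Laminin beta 3 was well above background in only 1 channel and did not enter the fit.

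Nidogen 2 (Nid2), a linker of laminin and collagen IV, had signals of 478 and 937 with LIF siRNA and 1092 and 1339 with scrambled siRNA, and log2 ratios of -1.19 and -0.51 with a limma adjusted p of 0.11. Nidogen 1 (Nid1), its paralog, had -0.37 on array 1 and 0.39 on array 2, with a mean of 0.01 ± 0.54 (SD, n = 2). Procollagen IV alpha 1 (Col4a1) had signals of 5722 and 4415 with LIF siRNA and 3886 and 4478 with scrambled siRNA and log2 ratios of 0.56 and -0.02. Procollagen IV alpha 2 (Col4a2), transcribed from the same promoter region in the opposite direction, had 1.43 and 0.34, with signals of 2418 and 2039 with LIF siRNA and 895 and 1615 with scrambled siRNA, and a limma adjusted p of 0.15. Both type IV chains were higher on array 1 than on array 2. The type IV alpha 5 chain was well above background in no channel.

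Primitive endoderm and its derivatives make much of the first basement membrane. Of 8 marker names searched, 4 spots of parietal or visceral endoderm were found, with a summed signal of 550 and 698 with LIF siRNA and 1030 and 1243 with scrambled siRNA. GATA-binding protein 6 (Gata6), a defining regulator of primitive endoderm, had log2 ratios of -1.34 and -1.21, transthyretin -0.07 and -0.12, and alpha fetoprotein 1.47 and 2.43. Hepatic nuclear factor 4 was not well above background with LIF siRNA on either array (signals of 13.8 and 13.8, beside 111 and 245 with scrambled siRNA). No firm bound of its ratio is given, since some signals not well above background lay above the lowest signal marked as well above background. Without the brightest spot, Gata6, the sums were 248 and 330 with LIF siRNA and 265 and 393 with scrambled siRNA. A smaller number of cells of one kind and less RNA per cell cannot be told apart in RNA of whole embryos. The part of these markers in the laminin and nidogen values was not tested.

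**Figure D3:**
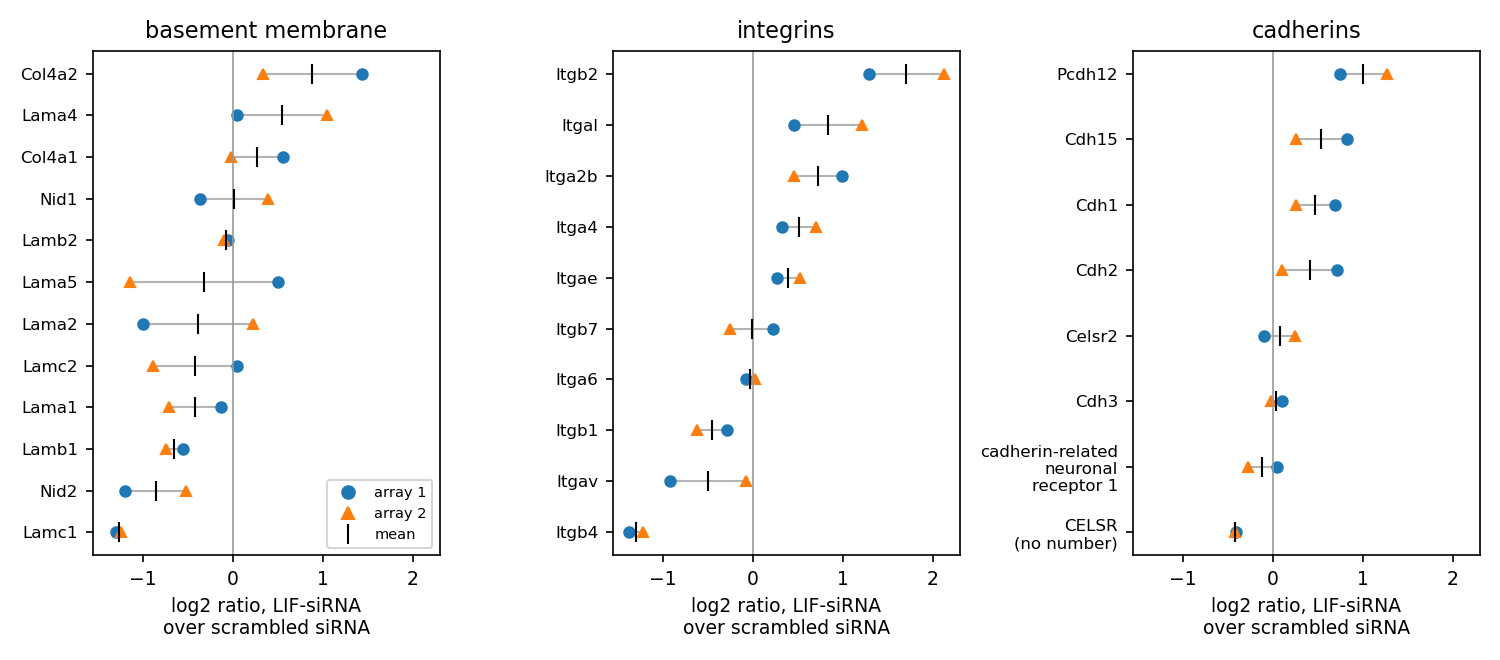
Log2 ratio of LIF siRNA over scrambled siRNA (x axis) for each basement membrane, integrin and cadherin spot in the fit, with circles for array 1, triangles for array 2 and a tick for their mean. Lamc1 and Itgb4 stand lowest in their panels with both arrays close together (-1.29 and -1.24, and -1.38 and -1.22), Itgb2 and Pcdh12 stand highest, and the arrays lie far apart for Lama5 (0.51 and -1.14).

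Of 12 cadherin spots, 8 entered the fit, 4 with a ratio above 1 on both arrays (36.7% of all spots), 1 with a ratio below 1 on both and 3 with mixed signs, with a median of 0.24. Cadherin 1 (Cdh1), the adhesion molecule of compaction, had signals of 8278 and 7505 with LIF siRNA and 5143 and 6267 with scrambled siRNA. Its log2 ratios were 0.69 and 0.26, with a mean of 0.47 ± 0.30 (SD, n = 2) and a limma adjusted p of 0.23. Cadherin 3 (P-cadherin), the placental cadherin, was almost equal, with log2 ratios of 0.10 and -0.02. Protocadherin 12 (Pcdh12), known from endothelium and trophoblast, had 0.75 and 1.27 and a limma adjusted p of 0.088, but its signals of 72.6 and 81.3 with LIF siRNA and 43.2 and 33.8 with scrambled siRNA were dim. The last of these was not well above background, so that array 1 alone measured both groups, and the mean of 1.01 was 0.36 after normexp and loess. Cadherin 2 of nerve and heart had 0.71 and 0.11, and cadherin 15 of muscle 0.82 and 0.26. The spot named cadherin EGF LAG seven-pass G-type receptor, without a number, was the one below 1 on both arrays, at -0.41 and -0.42.

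The catenins, which carry cadherins on the inside of the cell, were read from a separate list of 44 spots of linked genes, of which 39 entered the fit. In this list 10 spots (25.6%) had a ratio above 1 on both arrays, 13 (33.3%) a ratio below 1 on both and 16 mixed signs, beside 36.7% above and 36.8% below of all spots. The median was -0.12, and limma called 0 after adjustment and 11 of 39 at an unadjusted p under 0.05 (7 higher and 4 lower), beside 30.7% of all spots. Catenin alpha 1 had log2 ratios of -0.31 and -0.45, catenin beta -0.37 and -0.05, and catenin src (the p120 catenin) -0.21 and -0.16. For other proteins of cell contacts in this list the values were as follows, chosen after they were seen. Zyxin had -0.86 and -1.92, focal adhesion kinase (PTK2) -0.56 and -0.76, vinculin -0.30 and -0.87, and vasodilator-stimulated phosphoprotein -0.20 and -1.33. CD44, a receptor of hyaluronan, had 0.52 and 0.57, discoidin domain receptor 1, a receptor of collagen, 0.40 and 1.14, and discoidin domain receptor 2 had 0.06 and -0.82. Actinin alpha 3 was at 0.84 and 1.29 and the actinin alpha 2 associated LIM protein at -0.07 and 0.59. Matrix metalloproteinase 12, a macrophage elastase, was the single linked spot with a ratio below 0.5 on each array, at -1.33 and -2.14, with signals of 62.3 and 60.7 with LIF siRNA and 156 and 267 with scrambled siRNA.

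The collagens other than type IV gave 20 spots with 17 names, of which 18 spots entered the fit. The ratio was above 1 on both arrays for 8, below 1 on both for 6 and mixed for 4, and the median was 0.33. Procollagen III alpha 1 (Col3a1), a fibrillar collagen of soft tissue, had signals of 3752 and 3919 with LIF siRNA and 1898 and 2249 with scrambled siRNA, log2 ratios of 0.98 and 0.80 and a limma adjusted p of 0.088. Procollagen I alpha 2 (Col1a2), of the main collagen of bone and skin, had signals of 84.9 and 81.1 with LIF siRNA. Its scrambled-siRNA signals of 22.5 and 34.0 were not well above background on either array, with log2 ratios of 1.92 and 1.25 and a limma adjusted p of 0.061. The mean log2 ratio was 0.45 after normexp and loess, under 2-fold, and no firm lower bound of the ratio is given, since the dim signals lay above the lowest signal marked as well above background. The spot of its partner chain, procollagen I alpha 1, was well above background in no channel.

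Procollagen VI alpha 1 (Col6a1), of the beaded filaments near basement membranes, lay in the opposite direction, with signals of 951 and 1429 with LIF siRNA and 1722 and 2895 with scrambled siRNA. Its log2 ratios were -0.86 and -1.02 and its limma adjusted p was 0.083. Procollagen VI alpha 2, the second chain of that trimer, was at -0.19 on both arrays. The chains of type IX, a collagen that sits on the fibrils of cartilage, were lower or mixed. Alpha 2 had -1.59 and -0.32, and alpha 1 had a mean of -0.58, with both arrays below 0 and the LIF-siRNA signal of array 1 not well above background. The brighter alpha 3 spot gave 4303 and 4051 with LIF siRNA and 7976 and 7137 with scrambled siRNA, log2 ratios of -0.89 and -0.82 and a limma adjusted p of 0.090.

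The 3 collagen names with more than 1 spot disagreed between their spots. A second spot of procollagen IX alpha 3, with signals of 50.3 to 94.2, had -0.37 and 0.90. The spots of procollagen XIV alpha 1 had 0.90 and 0.94 on the one and -0.17 and -0.37 on the other, all of them dim (36.8 to 212). On the first of these the scrambled-siRNA signal of array 2 was not well above background. The spots of procollagen V alpha 2 had 0.65 and 0.75 on the one, with the highest signals of all the matrix and adhesion spots (11644 to 20966), and 0.01 and -0.35 on the other, with signals of 1778 to 2265. The V alpha 2 spots carry different transcript clusters in the files, and the other pairs carry the same cluster. Which of the spots measured its gene could not be settled from these files.

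**Figure D4:**
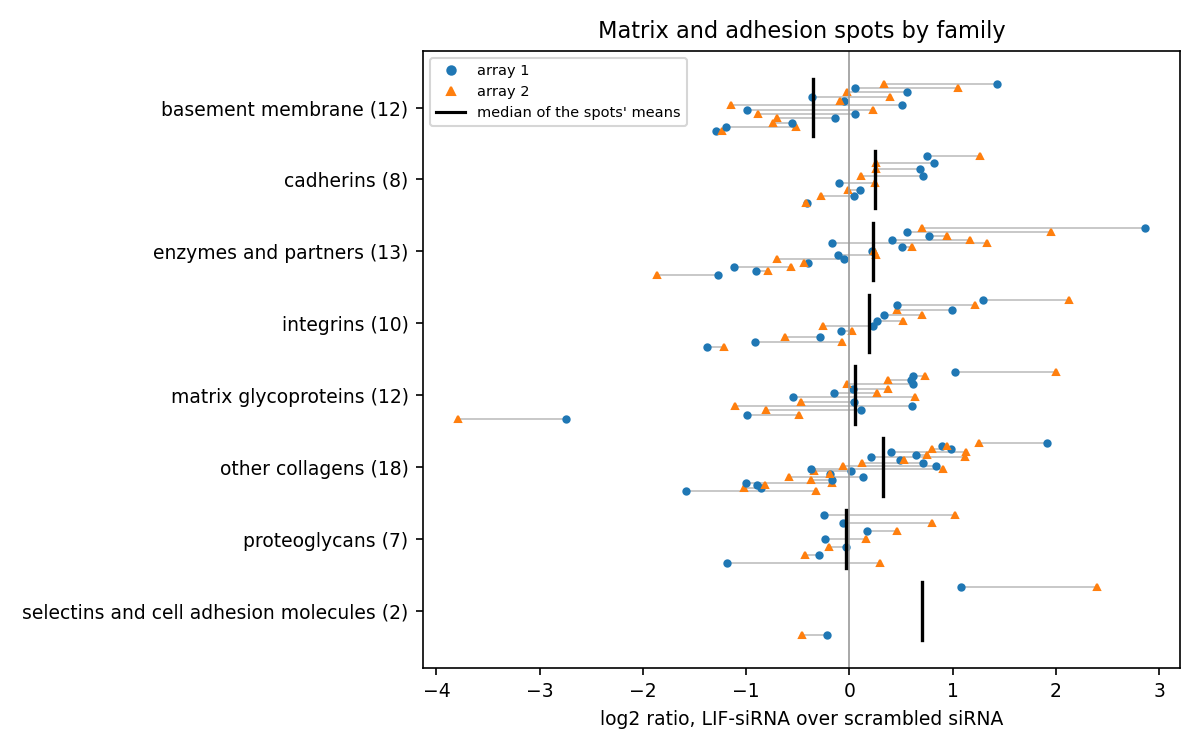
Log2 ratio of LIF siRNA over scrambled siRNA (x axis) of the 82 spots in the fit, grouped by family with the number of spots in brackets; each grey line joins array 1 (circle) and array 2 (triangle) of a spot, and the black bars are the medians of the spots' means. The bar lies lowest for the basement membrane (-0.35) and near 0 for the matrix glycoproteins (0.05) and proteoglycans (-0.04), and every family with over 2 spots has spots on both sides of 0.

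Of the enzymes and partners, 13 spots were measured and all 13 entered the fit, 7 of them with a signal above 1000, with 6 ratios above 1 on both arrays, 5 below 1 on both and 2 mixed. Prolyl 4-hydroxylase alpha II (P4ha2), which hydroxylates collagen chains, had signals of 3060 and 2822 with LIF siRNA and 1795 and 1466 with scrambled siRNA, log2 ratios of 0.77 and 0.94 and a limma adjusted p of 0.091. The alpha 1 chain of the enzyme had 0.22 and 0.24, and the beta chain, of the linked list, had -0.73 and -0.94. Lysyl hydroxylase 2 (Plod2), of collagen cross-linking, had 0.51 and 0.60, and lysyl hydroxylase 1 (Plod1) had -0.40 and -0.44. The signs were thus opposite between Plod2 and Plod1, and between the beta chain and both alpha chains of prolyl 4-hydroxylase. Heparan sulfate 3-O-sulfotransferase 1 (Hs3st1), which adds a rare sulfate to heparan sulfate, had the highest mean of the 82 spots on the deposited ratios, 1.78 ± 1.53 (SD, n = 2). After normexp and loess its mean was 1.09, below the 1.30 of thrombospondin 2. Its signals were 461 and 234 with LIF siRNA and 63.2 and 144 with scrambled siRNA, and its log2 ratios of 2.87 and 0.70 differed by more than their mean (limma adjusted p of 0.11). The 3-O-sulfotransferase 3A spot, with its LIF-siRNA signal of array 1 not well above background, had -1.12 and -0.56, and 2-O-sulfotransferase 1 had -0.11 and 0.26.

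Of the proteoglycans, 7 of 8 spots entered the fit, 1 with a ratio above 1 on both arrays, 2 with a ratio below 1 on both and 4 with mixed signs. Syndecan 4, a transmembrane proteoglycan of cell contacts, had signals of 1548 and 1785 with LIF siRNA and 1903 and 2413 with scrambled siRNA, and log2 ratios of -0.30 and -0.43. Syndecan 1, of epithelia and of the early embryo, went from -0.24 on array 1 to 1.03 on array 2, and syndecan 2 from -0.06 to 0.80. Glypican 4 was at -1.19 and 0.30, and glypican 3 at -0.03 and -0.20. Of these 7 spots, 0 had an unadjusted p under 0.05 by limma, beside 30.7% of all spots, and its lowest limma adjusted p was 0.30.

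Among the matrix glycoproteins, 12 of 15 spots entered the fit, 4 with a ratio above 1 on both arrays, 2 with a ratio below 1 on both and 6 with mixed signs. Thrombospondin 2 (Thbs2), a matricellular protein that limits vessel growth, gave 713 and 1088 with LIF siRNA and 352 and 271 with scrambled siRNA. Its log2 ratios were 1.02 and 2.00, the limma adjusted p was 0.074, its signal was above 1000 on array 2 alone, and the mean of 1.51 was 1.30 after normexp and loess. Thrombospondin 1, its close paralog, had -0.55 and 0.63 at signals of 24.8 to 38.4, with 2 of its 4 channels not well above background, and thrombospondin 4 did not enter the fit. Fibulin 1, a basement membrane partner of nidogen and laminin, had 0.05 and -0.47 at signals of 4079 to 5634, and fibulin 2 had 0.11 and -0.81, values that differed in sign between the arrays. Secreted phosphoprotein 1 (osteopontin), an integrin ligand of the uterus and embryo, went from 0.61 on array 1 to -1.10 on array 2. Matrilin 4 had 0.59 and 0.38, matrilin 2 had 0.62 and 0.73, and tenascin XB had -0.99 and -0.49. Tenascin C was well above background in no channel.

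Vascular cell adhesion molecule 1 (Vcam1), the ligand of the alpha 4 integrins, was the one selectin or immunoglobulin-type adhesion molecule with a 2-fold difference on both arrays. It gave 87.4 and 264 with LIF siRNA and 41.3 and 50.1 with scrambled siRNA, log2 ratios of 1.08 and 2.40, a mean of 1.74 ± 0.93 (SD, n = 2) and a limma adjusted p of 0.077. The mean was 0.80 after normexp and loess. L-selectin had -0.22 and -0.46, and the P-selectin, P-selectin ligand and neural cell adhesion molecule spots did not enter the fit. Of the endothelial markers, 3 spots were found for 4 names searched, with a summed signal of 1079 and 2072 with LIF siRNA and 1081 and 1072 with scrambled siRNA. Without the brightest spot, platelet/endothelial cell adhesion molecule, the sums were 438 and 705 with LIF siRNA and 302 and 266 with scrambled siRNA, nearly all from the endothelial-specific receptor tyrosine kinase (401 and 617, and 259 and 204). The other markers, kinase insert domain protein receptor and platelet/endothelial cell adhesion molecule, had log2 ratios of -0.23 and 0.50, and -0.28 and 0.76, with opposite signs on the arrays. The fibroblast markers had 4 spots, with sums of 192 and 271 against 217 and 221, the 3 smooth muscle spots had sums of 1447 and 1605 against 3672 and 4959, and the 3 cumulus or granulosa spots had sums of 585 and 439 against 285 and 217. Each of the last 2 sums rested on 1 spot. Without actin alpha 2 the smooth muscle sums were 359 and 377 against 350 and 458, and without inhibin beta-B the cumulus or granulosa sums were 97.9 and 125 against 162 and 116. Their part in the values of Vcam1, Thbs2 and the collagens was not tested.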

How the data were processed

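Matrix and adhesion spots were read from 2 two-color arrays. The deposited processed signals are intensity values that the authors' software had corrected for background and dye, and the deposited ratio column gives log10 values, Cy5 over Cy3, that the authors' software (Agilent Feature Extraction) had normalized by rank-consistent lowess. The deposited brightness and local background intensities are not normalized. The series-wide table of the authors was not used, since it follows the brightness (r of 0.998) and not the log ratio.

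These values were put on the log2 scale. Control spots (252), blank spots (664) and 23 outlier gene spots were left out. limma 3.58.1 in R 4.3.3 (lmFit and eBayes, intercept only, two-sided, threshold 0.05) was run on the 8079 spots with 1 or both dyes well above background on each array, and checked on simulated data. Tables and figures were made with pandas 2.3.3, numpy 2.4.6 and matplotlib 3.10.9 in Python 3.11.15. The number of arrays limits the precision. Alternatives were normexp (offset 50) with loess, median centring, other filters, an intensity trend, the methods' t-test and each array left out.

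Families and symbols were set by hand from gene names. Named genes were those past the criteria, the 8 highest and 8 lowest of the same sign on both arrays, the 8 brightest, early embryo genes and names with several spots. Others were named to complete their families. The members and lists were chosen with earlier results of these data known.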

Additional observations from a re-analysis of the deposited data

How the results depend on the processing

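The count of spots called by limma depended on the setting. It was 0 of 82 in the main analysis, 0 with normexp and loess, with outliers kept, without a filter on dim spots and by the methods' t-test, but 6 with median centring (2 higher, 4 lower), 5 of 73 with both channels well above background on both arrays (1 higher, 4 lower), 7 of 26 with a signal above 1000 (3 higher, 4 lower) and 15 with an intensity trend (7 higher, 8 lower). Over all spots the counts in the last 4 settings were 345 of 8079, 234 of 7575, 660 of 3527 and 1133 of 8079. Normexp with loess gave 158 of 8079. Fibulin 5, integrin linked kinase, integrin beta 4 and laminin gamma 1 were the lower spots called both with median centring and with the well-above-background filter. Up-expression spots numbered 0, but 7 without the signal criterion, 7 with well above background in its place and 1 to 2 with an array left out. Without the signal criterion these were 7.22% of the 97 spots, beside 6.55% of all gene spots, and with well above background in its place 8.54% of the 82 spots, beside 6.96%. Down-expression spots numbered 1, but 5, 4 and 2 to 4 in the same settings, where the first 2 shares were 5.15% and 4.88% beside 5.13% and 5.27% of all gene spots. With an array left out, the share of bright spots that were down-expression was 14.3% (without array 1) and 8% (without array 2), beside 7.46% and 6.15%, and that of up-expression 7.14% and 4%, beside 7.29% and 5.03%. The median log2 ratio of 0.051 was -0.095 for signals above 1000 and 0.047 to 0.143 with an array left out. Of 36 named spots, 28 kept their value within 1 SD under normexp and loess and 8 moved, all toward 0 and none with a change of direction. The SD is that of 2 arrays, so a spot with a large spread counts as kept after a large shift. Hs3st1, at 1.78 and then 1.09 with an SD of 1.53, was such a spot. Over the spots with more than a 2-fold change the median size on the log2 scale went from 1.57 to 0.98. The normexp offset of 50 is added to both dyes, so this setting draws the ratios of dim spots toward 1 by its design. limma cannot be fitted with 1 array, since no residual degree of freedom is left. The causes were not tested. Each array holds both groups, so the test of its log ratios was already paired, and an unpaired one was not run.

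Array number, unswapped dyes and the low signal of many matrix spots limit what these ratios can show: 73 of the 97 spots were well above background in every channel.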
